A study of Homo sapiens with 4 samples.

Results

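Flag-FLI1 occupancy was examined at the promoters of 10 genes, ADAT3, SCAMP4, ATXN2, ATXN2-AS, ELL, CHAMP1, WASL, WASL-DT, DDX5 and CEP95, of 62663 annotated genes. They were selected on the rank of their promoter peaks by −log10 p, near the top in both libraries, so the ranks and pileups below describe the selection and carry no test. Because neighbouring genes share a peak, the 10 genes fall into 6 loci, which were set against all 13585 promoter peaks shared by both libraries. The chromatin came from HK1, a cell line of nasopharyngeal carcinoma, with overexpression of Flag-FLI1. Both ChIP libraries carry this overexpression: the control received PBS and the other received IFN-γ for 24 h. There was 1 library per condition, without replicates. The antibody recognised the Flag tag, so endogenous FLI1 was not measured, and the peak lists hold no expression values with which to check the cell type. The input libraries were not analysed here.

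FLI1 belongs to the ETS family of transcription factors, which bind DNA through a conserved winged helix-turn-helix domain and recognise a GGAA core. The bases beside the core set the preference within the family, and many promoters of widely expressed genes carry ETS sites close to the transcription start site (TSS). FLI1 is best known in blood and endothelial cells and, fused to EWSR1, in Ewing sarcoma. The study turned to ChIP-seq to ask how FLI1 raises transcription of IDO1, and the loci described here come from the same peak lists.

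Sequences at or near the 6 summits are shown because they hold ETS cores to which the peaks are compared. They are the plus strand of GRCh38, 5′ to 3′, and capitals mark each GGAA core, on either strand, with 2 bases on both sides. Windows of 201 bases centred on the control summit are given for SCAMP4/ADAT3 (chr19:1905648-1905848), ELL (chr19:18478951-18479151), CHAMP1 (chr13:114314225-114314425) and WASL/WASL-DT (chr7:123749031-123749231). For ATXN2/ATXN2-AS (chr12:111599563-111599592) and DDX5/CEP95 (chr17:64506743-64506772), where the summit lies in annotated untranslated sequence, the 30 bases around the octamer are given. The ATXN2/ATXN2-AS stretch does not reach the summit at 111599537. Other cores near both summits, at 60.5 bp for ATXN2/ATXN2-AS and −47.5 bp for DDX5/CEP95, fall outside the printed bases.
SCAMP4/ADAT3: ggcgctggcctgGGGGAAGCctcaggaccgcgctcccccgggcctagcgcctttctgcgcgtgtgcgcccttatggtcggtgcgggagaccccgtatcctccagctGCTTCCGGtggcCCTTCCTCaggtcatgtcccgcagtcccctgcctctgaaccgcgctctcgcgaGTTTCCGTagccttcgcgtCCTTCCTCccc
ATXN2/ATXN2-AS: gggactctttaCCGGAAGTcggaggggtca
ELL: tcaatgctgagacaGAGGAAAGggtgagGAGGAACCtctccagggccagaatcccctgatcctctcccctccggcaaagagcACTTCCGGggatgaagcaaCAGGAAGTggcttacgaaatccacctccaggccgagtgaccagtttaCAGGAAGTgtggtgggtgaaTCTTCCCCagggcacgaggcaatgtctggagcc
CHAMP1: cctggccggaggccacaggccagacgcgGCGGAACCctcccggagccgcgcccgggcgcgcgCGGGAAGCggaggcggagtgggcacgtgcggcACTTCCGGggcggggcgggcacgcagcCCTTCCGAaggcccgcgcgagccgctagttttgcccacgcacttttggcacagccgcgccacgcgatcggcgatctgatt
WASL/WASL-DT: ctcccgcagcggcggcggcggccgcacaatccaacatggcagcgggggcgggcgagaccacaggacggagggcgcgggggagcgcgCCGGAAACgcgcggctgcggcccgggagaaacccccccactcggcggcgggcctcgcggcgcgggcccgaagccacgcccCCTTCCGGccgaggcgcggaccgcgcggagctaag
DDX5/CEP95: gaaatagctcaCCGGAAGTgcgctgctcgc

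The FLI1 octamer, taken as CAGGAAGT or CCGGAAGT on either strand, lay within 100 bp of the control summit at 4 of the 6 loci. Of all shared promoter peaks 16.0% held 1 or more in the same window, as did 43 of the 100 unselected promoter peaks with the best mean ranks. These are called the next 100 below, although some of them rank above selected loci. The share was 7.19% of 19027 protein-coding promoters centred on the TSS of the MANE Select transcript (the reference transcript of each coding gene). All 4 loci held the CCGGAAGT form, which 9.09% of shared promoter peaks and 38 of the next 100 hold. At CHAMP1 and at DDX5/CEP95 the octamer was centred 2.5 bp below the summit coordinate, which places both sites under the point of highest pileup. At ATXN2/ATXN2-AS it was centred 40.5 bp above the summit. Across these 4 values, which include the 40.5 bp at ATXN2/ATXN2-AS, the median distance from the summit to the nearest octamer was 3.5 bp. It was 16.5 bp over the 43 of the next 100 with an octamer and 19.5 bp over the 2173 shared promoter peaks with one.

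ELL carried the densest group of octamers, with 3 inside the window. A minus-strand CCGGAAGT was centred at −14.5 bp, a plus-strand CAGGAAGT at 4.5 bp and a further plus-strand CAGGAAGT at 51.5 bp. The first 2 sites flank the summit in opposite orientations, and 0.162% of shared promoter peaks and 1 of the next 100 held 3 octamers or more. The ELL summit is intronic, more than 3 kb from any annotated start. Octamers were not counted at intronic or distal peaks, so these shares do not show whether 3 are rare there.

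No octamer lay within 100 bp of the summit at SCAMP4/ADAT3 or WASL/WASL-DT, although both had shorter ETS matches. SCAMP4/ADAT3, ranked first in the control library, had 5 GGAA cores, of which the nearest read CCGGAAGC on the minus strand at 9.5 bp. WASL/WASL-DT had 2 cores, CCGGAAAC at −10.5 bp and CCGGAAGG on the minus strand at 69.5 bp. A looser ETS match, AGGAAG or CGGAAG, was found at all 6 loci, as in 67.0% of shared promoter peaks and 85 of the next 100, and a GGAA core was found at all 6 loci and in 96.0% of shared promoter peaks. These matches describe letters in a window and were not tested as binding sites.

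Other promoter motifs were searched in the same windows on both strands. The SP/KLF motif GGGCGG, bound by the zinc-finger factors of CpG-rich promoters, was present at 4 of 6 loci, at 65 of the next 100 and at 49.1% of shared promoter peaks. No locus held the AP-1 site TGANTCA, the NRF1 core CGCATGCG, the NFY box CCAAT, the YY1 core AAGATGGC or the TATA box TATAAA. Those were found at 10.4%, 1.05%, 16.0%, 2.49% and 2.58% of shared promoter peaks, and nothing is drawn from their absence in 6 windows. The ratio of observed to expected CpG in 501 bp around the summit ran from 0.928 to 1.10 at 5 loci, and it was 0.202 at ELL. A ratio above 0.6, the usual mark of a CpG island, was seen at 66.5% of shared promoter peaks and 89 of the next 100. Only 11.2% of shared promoter peaks and 3 of the next 100 lay below ELL, whose summit is intronic. Intronic and distal peaks were not compared.

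Signal at the loci is given as the summit pileup, the number of fragments covering the summit, which was solved from the deposited fold enrichment and −log10 p. The control list held 30819 peaks, 56.9% of them within 3 kb of a TSS, and the IFN-γ list held 39654 peaks, 47.0% of them at a TSS. The median promoter peak had a pileup of 19 fragments (control) or 24 fragments (IFN-γ). Backgrounds were higher in the IFN-γ library, where the lowest was 1.54 fragments against 1.06, and the ratio of 1.46 between them was used to scale pileups between the libraries. The peak lists hold no read totals, so this ratio stands in for sequencing depth without a check against it. Since several genes share a peak, values below belong to the locus and not to either gene.

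At SCAMP4/ADAT3 the control peak (chr19:1905113-1906131) held 516 fragments at its summit and the IFN-γ peak (chr19:1905389-1906185) held 579 fragments. SCAMP4 encodes a secretory carrier membrane protein of vesicle trafficking, and ADAT3 the partner of ADAT2 in the deaminase that makes inosine in tRNA anticodons. Its ranks were 1 (control) and 5 (IFN-γ), with fold enrichments of 226 and 134 over local backgrounds of 1.29 and 3.33 fragments.

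At ATXN2/ATXN2-AS the control peak (chr12:111597351-111600369) held 475 fragments and the IFN-γ peak (chr12:111599011-111599989) held 583 fragments. ATXN2 encodes ataxin-2, an RNA-binding protein whose glutamine repeat is expanded in a spinocerebellar ataxia, and ATXN2-AS is a long noncoding RNA read from the opposite strand. Ranks were 3 and 4, and fold enrichments of 232 and 223 stood over backgrounds of 1.06 and 1.62 fragments, close to the lowest of each library.

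ELL had the largest unscaled IFN-γ pileup of the 6 loci, with 294 fragments in the control peak (chr19:18478632-18480270) and 657 fragments in the IFN-γ peak (chr19:18478617-18479462). ELL encodes an elongation factor of RNA polymerase II that acts within the super elongation complex. The peak moved from rank 13 to rank 2, and its fold enrichments were 88.2 and 181.

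At CHAMP1 the control peak (chr13:114314024-114314978) held 374 fragments and the IFN-γ peak (chr13:114313978-114314834) held 409 fragments. CHAMP1 encodes a zinc-finger protein needed for the alignment of chromosomes on the spindle. Its ranks were 4 and 11, with fold enrichments of 112 and 115.

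At WASL/WASL-DT the control peak (chr7:123748324-123749704) held 347 fragments and the IFN-γ peak (chr7:123748566-123749656) held 410 fragments. WASL encodes N-WASP, which activates the Arp2/3 complex to nucleate branched actin, and WASL-DT is a divergent noncoding transcript. Its ranks were 5 and 12, and fold enrichments were 130 and 109.

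At DDX5/CEP95 the control peak (chr17:64505441-64507373) held 297 fragments and the IFN-γ peak (chr17:64505552-64507423) held 573 fragments. DDX5 encodes the RNA helicase p68 of splicing and microRNA processing, and CEP95 a centrosomal protein. Ranks were 14 and 8, and fold enrichments were near each other at 81.0 and 81.8, because the background was 2.68 fragments without IFN-γ and 6.02 with it. The latter was 3.92 times the lowest of its library, the highest multiple among the 6 loci.

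The selection is not the exact head of the ranking. By mean rank over both libraries the loci took places 1, 2, 4, 4, 6 and 8 among shared promoter peaks. KDM5A, a histone demethylase gene with the coding gene CCDC77 on the opposite strand, ranked 6 and 3 with 373 and 651 fragments. RFESD, a gene for an iron-sulfur domain protein, ranked 2 and 17 with 578 and 411 fragments. Both lay among the loci without being selected. Just inside the selection, DDX5/CEP95 had a mean rank of 11, and just outside it CCT5, FAM50B and TBPL1 had mean ranks of 16, 18 and 18.5. CCT5, a chaperonin subunit gene, held 234 and 733 fragments, and it ranked first in the IFN-γ list.

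**Figure D1:**
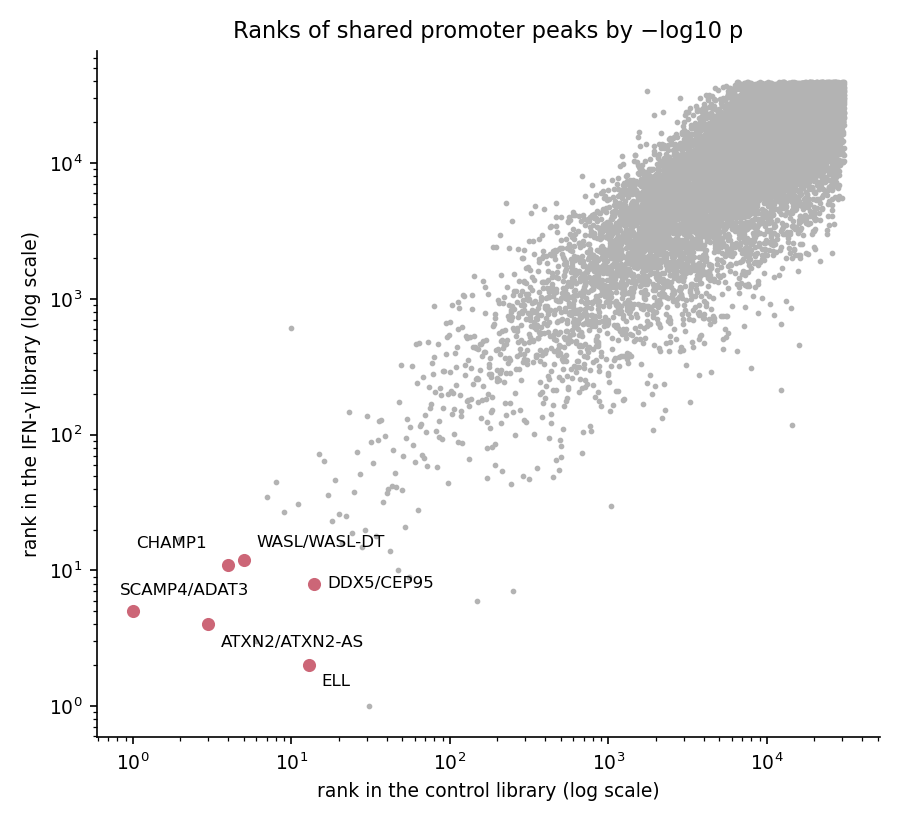
Rank in the control library (x axis, log scale) against rank in the IFN-γ library (y axis, log scale) by −log10 p for 13585 shared promoter peaks, with the 6 selected loci in red. All 6 lie within the first 14 places of both libraries, and 2 unselected promoters, KDM5A and RFESD, have mean ranks among theirs.

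Start sites were then set against the summits. At 3 of the 6 loci, ATXN2/ATXN2-AS, WASL/WASL-DT and DDX5/CEP95, a pair of genes on opposite strands ran apart from starts less than 1 kb from each other. Divergent pairs were found at 26.7% of shared promoter peaks and 52 of the next 100, so the share among the loci was near that of other strong promoter peaks. When noncoding genes were left out, DDX5/CEP95 was the only divergent locus of the 6, and the shares above still include noncoding genes.

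The main transcripts of WASL (TSS 123749003, minus strand) and WASL-DT (TSS 123749068, plus strand) start 65 bp apart, and each gene has 1 annotated start. The summit lay 63 bp inside exon 1 of WASL-DT and 128 bp upstream of WASL. ATXN2 (MANE Select TSS 111599315, minus strand) and ATXN2-AS (TSS 111599498, plus strand) start 183 bp apart, but 2 alternative ATXN2 start sites lie beyond the start of ATXN2-AS, by up to 178 bp. The summit lay 39 bp inside exon 1 of ATXN2-AS, 222 bp upstream of the MANE Select start of ATXN2, and within exons of 2 of its 43 transcripts.

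The MANE Select starts of DDX5 (TSS 64506289, minus strand) and CEP95 (TSS 64506977, plus strand) are 688 bp apart, and the summit fell between them, 471 bp upstream of DDX5 and 217 bp upstream of CEP95. As at ATXN2, alternative starts cross over: 4 DDX5 start sites lie beyond the main start of CEP95, by up to 1222 bp. This locus had the most annotated starts, 34 within 3 kb of the peak, and the nearest, an alternative DDX5 start, lay 29 bp from the summit. Exons of 5 of the 41 DDX5 transcripts covered the summit.

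SCAMP4 and ADAT3 are both on the plus strand, and their MANE Select transcripts begin at the same base (TSS 1905399). The summit lay 349 bp downstream of it, in intron 1 of both transcripts. The peak therefore cannot be assigned to either gene. At CHAMP1 (MANE Select TSS 114314503, plus strand) the summit lay 178 bp upstream of the start, outside all 10 annotated transcripts. The nearest of its 9 start sites was 157 bp away.

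ELL differed from the other loci in position. Its summit was 43019 bp downstream of the MANE Select start (TSS 18522070, minus strand), in intron 1 of 12 exons. The only start site within 3 kb of the peak was that of a shorter coding transcript at 18475933, and the summit was 3118 bp upstream of it, so only the edge of the peak reached the promoter window. The strong ELL peak is thus intronic, and calling it a promoter peak rests on that window. At the MANE Select promoter the control library had 2 weak peaks, with 17 fragments (rank 13384) and 9 fragments (rank 26495), and the IFN-γ library had 1 peak of 42 fragments (rank 7343).

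Over the 6 loci the median distance from the control summit to the nearest start was 110 bp, and 3 summits lay within 100 bp of one. Among shared promoter peaks 46.3% lay that close, as did 74 of the next 100, with medians of 122 bp and 34.5 bp. To the MANE Select starts of the genes themselves the 6 distances ran from 128 bp to 43019 bp, with none within 100 bp. No share of other promoter peaks is given for this narrower definition.

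Summits were placed at nearly the same base in both libraries. The shift between libraries was 2 bp at SCAMP4/ADAT3 and DDX5/CEP95, 4 bp at ELL and 6 bp at ATXN2/ATXN2-AS. It reached 14 bp at WASL/WASL-DT and 18 bp at CHAMP1. Over all shared promoter peaks the median shift was 35 bp and 34.7% shifted by 20 bp or less, compared with 9 bp and 83 of the next 100. Strong peaks hold more fragments at the summit, so these shifts stand beside pileups of at least 294 fragments at the 6 loci.

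Scaled for depth, the IFN-γ over control pileup ratio was above 1 at ELL and DDX5/CEP95 and below 1 at the other 4 loci, whose ratios turn above 1 when pileups are not scaled. Intervals are exact binomial at 95% and cover counting error only. ELL had a ratio of 1.53 (interval 1.34 to 1.77), at percentile 90.2 of all shared promoter peaks. DDX5/CEP95 had a ratio of 1.33 (1.15 to 1.53), but 1.01 by fold enrichment, which divides by the raised background. At the other 4 loci ratios ran from 0.751 (0.651 to 0.866) at CHAMP1 to 0.843 (0.746 to 0.954) at ATXN2/ATXN2-AS, with 0.771 (0.683 to 0.869) at SCAMP4/ADAT3 and 0.812 (0.702 to 0.939) at WASL/WASL-DT. The median over the 6 loci was 0.827 and over all shared promoter peaks 0.886, with quartiles of 0.687 and 1.16. Over the next 100, whose pileups are closer to those of the loci, the median was 0.955, with quartiles of 0.819 and 1.14.

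ELL was the only locus past a ratio of 1.5, and none was as far below 1. Selection near the top of both lists limits how far the ratios of the loci can lie from 1. Among all shared promoter peaks 10.6% were over 1.5 times higher and 22.2% over 1.5 times lower in the IFN-γ library. Those peaks had median pileups of only 23 fragments (control) and 30 fragments (IFN-γ), and these shares are not given for the next 100. The interval at ELL includes 1.5. With 1 library per condition, treatment and library cannot be told apart, and the ratios describe these 2 libraries.

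Besides the 6 main peaks, further peaks lay at some of the promoters. In all, 8 distinct control peaks and 10 distinct IFN-γ peaks met a promoter window of a member. The extra IFN-γ peaks at SCAMP4/ADAT3 (chr19:1907295-1907618), ATXN2/ATXN2-AS (chr12:111597140-111598522) and CHAMP1 (chr13:114313174-114313742) held 15, 15 and 20 fragments, below the median promoter peak of 24. The IFN-γ peak of 42 fragments at the MANE Select promoter of ELL was above that median. The peak of 15 fragments at ATXN2/ATXN2-AS lies in part within the wide control peak of 3019 bp there, which the IFN-γ list splits into 2 peaks.

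The nearest coding genes beside the loci ranged from promoters with well-ranked peaks to promoters with none, and CHAMP1 had such a neighbour on 1 side only. ABHD17A, 20.3 kb from the SCAMP4/ADAT3 summit, had promoter folds of 26.1 and 21.2 in the control and IFN-γ libraries. Its ranks there were 1572 and 3269. UPF3A, 32.7 kb from CHAMP1, had folds of 15.7 and 12.9 and ranks of 3530 and 6064. POLG2, 9.71 kb from the DDX5/CEP95 summit, had folds of 18.4 and 13.2 and ranks of 3041 and 5514. The ELL neighbour ISYNA1 had a fold of 3.89 in the control library and no IFN-γ promoter peak. LMOD2 and HYAL4, on either side of WASL, had no promoter peak in either library. Within 50 kb of the WASL/WASL-DT and ATXN2/ATXN2-AS summits the control library had 0 other peaks, and the IFN-γ library had 1 and 3. SCAMP4/ADAT3 lay among the most other peaks, 7 and 9, the highest with a fold of 35.5 in the control library.

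Relatives of the 10 genes were examined next, as 39 paralogs, partners and complex members. A promoter peak in both libraries was found at 33 of the 39, and at 56.0% of all 20033 protein-coding genes. Their best promoter peaks had median ranks of 6556.5 (control) and 8764 (IFN-γ), beside 6622 and 10438 for all protein-coding genes with a promoter peak, and the best ranks among them were 230 and 332. Elongation factors were the largest group, with peaks at 11 of 12 genes in both libraries. The median ranks of those with a peak were 8944 (control), behind that of all protein-coding genes, and 4456 (IFN-γ), ahead of it. CDK9, the kinase of P-TEFb, ranked 230 and 500 with 118 and 144 fragments, and its cyclin CCNT1 ranked 539 and 386 with 97 and 195 fragments. The super elongation complex scaffold AFF4 ranked 1239 and 1152, and ELL2, the paralog of ELL, ranked 9400 and 2002. ELL3 had a peak in the control library alone, of 11 fragments. Others ranked low in both libraries, such as MLLT3 at 27396 and 31198 and ICE1 at 15029 and 17612.

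Among partners of CHAMP1, POGZ, a zinc-finger gene, ranked 307 and 332 with 108 and 157 fragments, and 4 of the 5 genes of this group had a peak in both libraries. ADAT2, whose product forms the deaminase with ADAT3, had 25 and 26 fragments, at ranks 6491 and 17841. DDX17, the close paralog of DDX5, had 16 and 25 fragments. The SCAMP paralogs (4 of 4) and the ataxin-2 partners (3 of 3) all had a peak in both libraries, of 20 to 43 fragments in the control. In the actin group 7 of 10 had a peak in both libraries. The Arp2/3 subunit genes ACTR2 and ACTR3, the best-ranked of the group, ranked 1431 and 1886 in the control library and 2672 and 3968 with IFN-γ. The median ranks of the actin genes with a peak were 4320 (control) and 8556 (IFN-γ). WASF2 and WASF3 ranked lower, at 19238 and 12614 in the control library and 24685 and 35703 with IFN-γ. WIPF3 had no promoter peak in either library, and WAS and WIPF1 had one in the IFN-γ library alone.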

How the data were processed

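According to the methods and the submitters' processing notes, the authors used cutadapt 1.18 for trimming, Bowtie2 2.3.4.1 for alignment (GRCh38) and Picard against duplicates. Peaks were called for each library separately with MACS2 2.1.2. Use of the input in calling is not given in the sources used here. The deposited lists give each peak's fold enrichment (a ratio), −log10 p-value and −log10 q-value, a display score (not used) and the summit offset.

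Pileup and background were solved from deposited fold and −log10 p, assuming the MACS2 formulas and a background of at least 1 fragment. The recomputed −log10 p differed from the deposited value by a relative 6.21e-06 at most, which is not an error of the fragment counts. Pileups were scaled by the ratio of the lowest backgrounds. Start sites came from GENCODE 44. A promoter peak overlapped 3 kb either side of any transcript start, and shared peaks overlapped by at least 1 bp. Motifs were searched within 100 bp of the control summit. Pileup recovery, octamer search, nearest start, promoter call and overlap each recovered 100% of simulated answers. Simulated backgrounds all lay above the lowest of the control library, 1.06 fragments, so recovery at that value was not tested. Scaling, ratio intervals and divergence calls were not simulated. The genes named were drawn from the 10 members, the 39 relatives, the nearest coding neighbours and the 5 best-ranked unselected promoters, and not every relative or neighbour is named. The members, relatives and motifs were chosen with earlier results of these data known. The alternatives were other promoter windows, q-value limits, ranking values, scalings, motif forms and definitions of starts and divergence. Tables were handled with pandas 2.3.3 in Python 3.11.15, intervals with scipy 1.17.1, sequences with pysam 0.24.0 and plots with matplotlib 3.10.9.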

Additional observations from a re-analysis of the deposited data

How the results depend on the processing

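No paired analysis was possible because control and IFN-γ were represented by 1 ChIP library each. Of 44 alternative values of the main counts and median ranks, 39 stayed within 1.5 times the reported count or within the counting interval of the reported rank. Some of these, the member promoter peaks and the median ranks, rest on the values used for the selection, so their stability carries no weight. Single loci moved when ranked by fold enrichment. DDX5/CEP95 went from 14 to 35 (control) and from 8 to 23 (IFN-γ). ELL went from 13 to 24 (control) and ATXN2/ATXN2-AS from 4 to 1 (IFN-γ). The count of loci with an octamer, 4, rose to 6 with shorter motif forms, which met the 1.5 limit and was counted as unchanged. Without scaling for depth, 2 loci (ELL and DDX5/CEP95) in place of 1 were over 1.5 times higher in the IFN-γ library, and ratios turned above 1 at SCAMP4/ADAT3 (1.12), ATXN2/ATXN2-AS (1.23), CHAMP1 (1.09) and WASL/WASL-DT (1.18), as the divisor of 1.46 was removed. The median unscaled ratio of all shared promoter peaks was 1.29. Scaled by this median, ELL stood at 1.73 and DDX5/CEP95 at 1.495. The other loci then lay between 0.848 (CHAMP1) and 0.951 (ATXN2/ATXN2-AS). By fold enrichment in place of pileup, 1 locus, SCAMP4/ADAT3 at 0.593, was over 1.5 times lower and CHAMP1 turned to 1.03, since fold divides by each peak's background. Summits within 100 bp of a start fell from 3 loci to 1 with protein-coding starts and to 0 with the genes' own MANE Select starts, and divergent loci fell from 3 to 1 with coding genes alone, as fewer starts were counted. An alternative added after the data were examined asked where the best ELL promoter peak ranks: with the summit required inside the window, or the MANE Select start alone, it ranked 13384 (control) and 7343 (IFN-γ), and with a window of 1 kb it ranked 26495 (control) and had no IFN-γ peak. Depth limits what can be read from the further promoter peaks, which rest on 9 to 42 fragments, and no ratios are given for them.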

Other observations

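After the summit sequences had been read, 2 further motifs were counted within 100 bp of the control summits, and both counts are descriptions chosen after the letters were seen. The form CCGGAA, shorter than the octamer, was present at all 6 loci, at 33.9% of shared promoter peaks, at 78 of the next 100 and at 17.9% of protein-coding promoters. It takes in SCAMP4/ADAT3 and WASL/WASL-DT, the loci without an octamer. The E-box CACGTG was present at CHAMP1 and DDX5/CEP95, that is at 2 of 6 loci, and at 6.15% of shared promoter peaks and 8 of the next 100.

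Of the promoters just outside the selection, RFESD had a depth-scaled IFN-γ over control pileup ratio of 0.488 and CCT5 a ratio of 2.15. Like those of the 6 loci, these ratios depend on the scaling.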
